A study of Mus musculus with 9 samples.

Results

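The conjugating enzymes of the UGT, GST and SULT families were examined in RNA from 9 mouse livers, 5 from mice given an antisense oligonucleotide (ASO) against apoC-III and 4 from mice given a control ASO. Members were taken by gene symbol alone. They were the UGT1, UGT2 and UGT3 genes, cytosolic and kappa GSTs, microsomal GSTs (MGSTs) and SULTs whose symbols follow the usual mouse naming. This rule found 67 of the 51912 genes listed. There were 21 UGT genes, 25 GST and MGST genes and 21 SULT genes, all of them annotated as protein coding. No measured value entered the rule. All 9 mice were Apoe-/- *Ndst1* f/f Alb-Cre+ on a C57Bl/6 background, so every liver, control livers included, lacked apoE and carried a deletion of the heparan sulfate sulfotransferase NDST1 driven by the albumin promoter, which is active in hepatocytes. Mice received the apoC-III ASO or a control ASO by intraperitoneal injection at 50 mg/kg/week for 8 weeks and were fasted before tissue was taken. The diet of these particular mice was not stated beside the sequencing, and no saline group was analysed here, so an effect shared by both ASOs could not be seen.

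Conjugation makes fat-soluble compounds water soluble so that they can leave in bile or urine, and the liver carries out most of it. UGTs sit in the endoplasmic reticulum and transfer glucuronic acid from UDP-glucuronate to bilirubin, steroids, bile acids, phenols and drugs. GSTs, most of them in the cytosol, join glutathione to electrophiles and to products of lipid peroxidation, and MGSTs do this in membranes. SULTs transfer sulfate from PAPS to phenols, steroids, bile acids and amines. Many of these genes are induced through the receptors CAR, PXR and AhR or through NRF2, the factor that answers electrophiles.

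Levels were given as TPM, a relative abundance that corrects for transcript length, so depth is unknown and single livers carry no counting interval. Copies of 7SL RNA made up 64.0% to 83.6% of the TPM, against 1.94% to 8.64% for nuclear protein-coding genes. Values below are therefore rescaled, meaning that nuclear protein-coding genes were brought to the same total in each liver and then divided by a factor that sets the typical gene equal between livers. Control ASO liver 4 stood apart. Its factor was 0.496, against 0.930 to 1.44 in the other livers, and its median correlation with the other livers was 0.878, against 0.915 to 0.931. Its abundant mRNAs were high on the rescaled scale, so members' values that moved by over 1.5 times when it was left out are given both ways. Throughout, values are listed for apoC-III ASO livers 1 to 5 first and control ASO livers 1 to 4 second, ranges follow the same order, and differences are log2 fold changes of apoC-III ASO against control ASO. Higher and lower, in counts of genes, mean the sign of that log2 fold change, which compares mean log2 values and can differ from the sign of the difference in mean rescaled values. The labels gave a title for each sample and no litter, batch or date.
The target transcript, *Apoc3* (ENSMUSG00000032081, chromosome 9 from 46232933 to 46235636, minus strand), checked the labels. It was at 379, 431, 335, 623 and 486 in apoC-III ASO livers 1 to 5 and at 3372, 3171, 3481 and 4294 in control ASO livers 1 to 4. Treated livers all lay far below the controls. The log2 fold change was −3.01 (SE 0.23), with an adjusted p of 3.83e-04 in limma and p = 0.00794 in an exact two-sided permutation test, the smallest p that 5 livers against 4 allow. Hepatocyte markers were abundant in all livers, with *Alb* at 15310.0 to 39732 and 19517 to 25981.

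No conjugating enzyme passed the test. Of the 67 members, 14 were listed at 0 in every liver and 6 more were above 0 but had a mean rescaled value under 1, which left 47 to be tested among 11954 genes. In limma with Benjamini-Hochberg adjustment, 0 of the 47 were called higher, where 0% of all genes tested were, and 0 were called lower, where 0.0167% were. To be called, a gene needed more than a 1.5-fold difference and an adjusted p below 0.05. In TPM as deposited 0 members were called either (0.101% of all genes higher, 0.122% lower). Exact permutation tests could call no gene in this design, since their smallest p, adjusted over all genes, gave 0.778 even for *Apoc3*.
At an unadjusted p under 0.05 in limma, 2 members were higher in apoC-III ASO livers (4.26% of those tested, against 2.99% of all genes) and 5 were lower (10.6%, against 2.58%). Those higher were *Gsta1* and *Gstm4*. Those lower were *Ugt3a1*, *Ugt2b37*, *Gstt1*, *Gstt2* and *Sult5a1*. The livers of the 2 groups did not overlap in 1 member that was higher, *Gsta1* (0.92% of all genes), and in 3 that were lower, *Ugt3a1*, *Ugt2b37* and *Gstt1* (0.912% of all genes). Of these, *Ugt2b37* passed the filter only through the controls, with a treated mean of 0.651. Leaving it out, 46 members were tested, of which 4 were lower at that threshold and 2 lower without overlap. Without control liver 4, 0 members were called (0% of all genes higher, 0.0249% lower), 4 were higher at an unadjusted p below 0.05 in limma (2.82% of all genes), namely *Gsta1*, *Gsta2*, *Gstm3* and *Gstm4*, and the same 5 genes were lower (2.53% of all genes).
Most members had a negative difference. There were 35 of 47 lower and 12 higher (36 and 11 by mean rescaled value), with a median log2 fold change of −0.33, against −0.0013 over all genes tested. By group of enzymes, the median was −0.37 over 19 UGTs, of which 18 were lower, and −0.51 over 6 SULTs, all lower. It was −0.039 over 22 GSTs and MGSTs, of which 11 were lower and 11 higher. Without control liver 4 these medians were −0.24, −0.30 and 0.060, and 5 of the 6 SULTs were lower. Without the scaling factors they were 0.10, −0.13 and 0.44, and 14 of the 19 UGTs were higher. There the median over all genes was 0.41, and 12.0% of all genes were lower. In the plot of differences, the 95% intervals of most UGTs, drawn in gray, lie mostly to the left of 0 and still cross it.

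**Figure D1:**
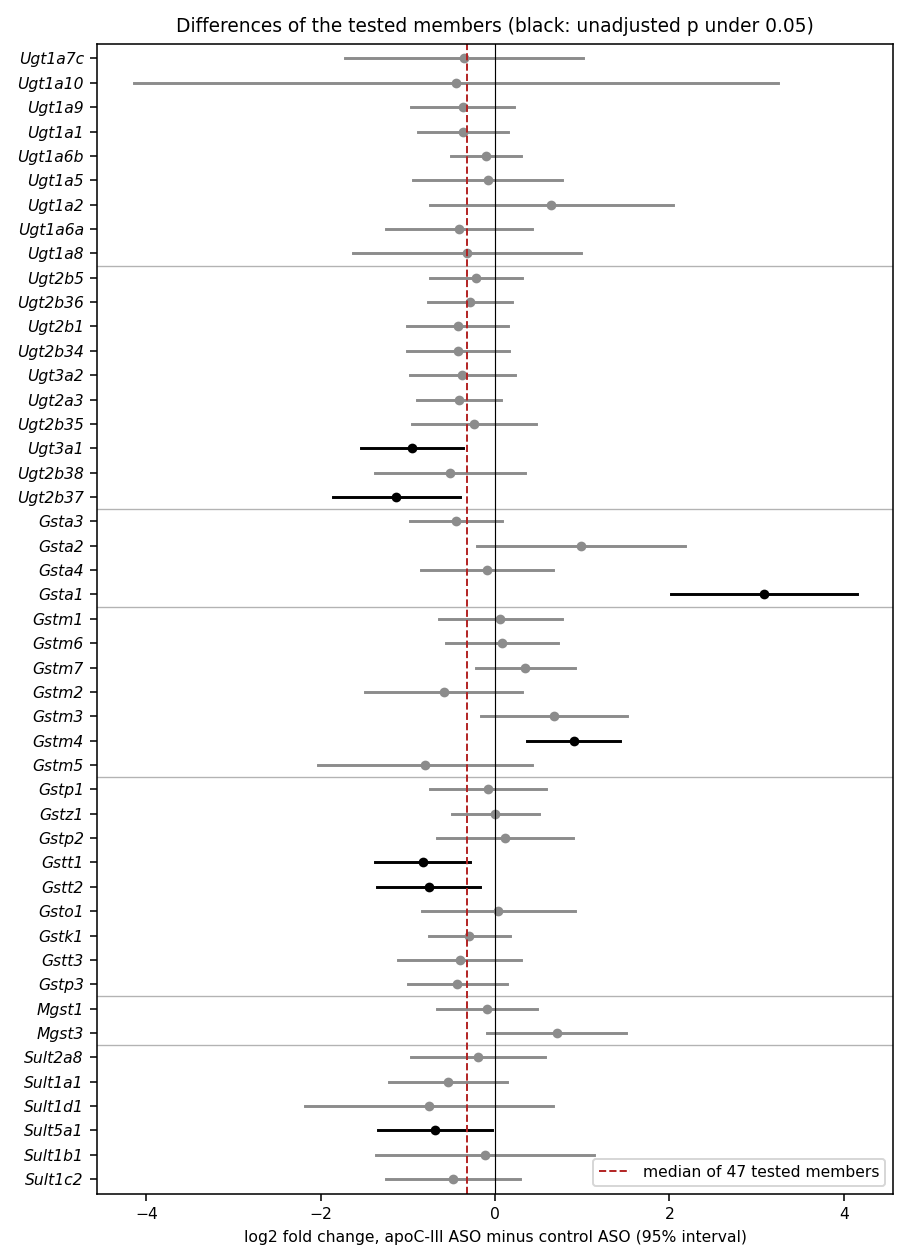
Log2 fold change (apoC-III ASO minus control ASO, horizontal axis) with its 95% interval from limma for the 47 tested members, grouped by family from UGT1A at the top to SULT at the bottom. Black marks an unadjusted p under 0.05, gray the rest, and the dashed line the median of the members at −0.33; *Gsta1*, at 3.09, stands far to the right of all others.

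The size of this shift depended on the scaling. In TPM as deposited, 36 members were tested and their median was −0.033, against 0.11 over 4936 genes. With rescaling but without the factors it was 0.12, against 0.41 over all genes. The members' median was thus below that of all genes under each scaling, with a difference of −0.14 in TPM as deposited and −0.32 with the factors, while its sign was not the same under all of them. Abundance moved with it. Of genes with a mean rescaled value of at least 100, 66.7% were lower in apoC-III ASO livers and their median was −0.14, and the 20 members in that range had a median of −0.36. Without control ASO liver 4 these medians were −0.075 and −0.15. Over all genes and all members they were −7.23e-05 and −0.20. In bulk RNA, fewer hepatocytes and less RNA per hepatocyte cannot be told apart. Of 6 hepatocyte markers 4 were lower and 2 higher, with a median log2 fold change of −0.098. Without control ASO liver 4, 2 were lower and 4 higher, with a median of 0.038. Their part in the members' values was not tested.

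**Figure D2:**
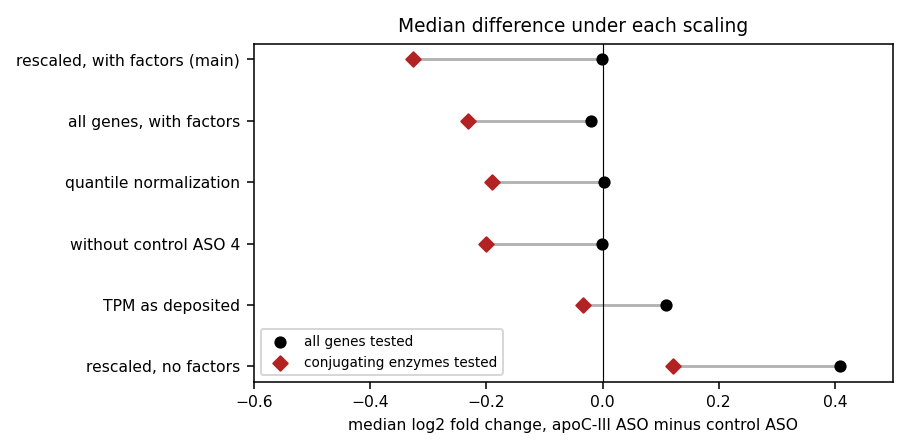
Median log2 fold change (horizontal axis, apoC-III ASO minus control ASO) of all genes tested (black circles) and of the conjugating enzymes tested (red diamonds) under 6 ways of scaling or choosing livers. The diamonds lie left of the circles in each row, from −0.33 to 0.12.

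By level, a single membrane enzyme led the group. *Mgst1* alone held 43.8% to 51.8% of the members' summed rescaled value in each liver, *Gstp1* 8.51% to 13.0%, *Gstm1* 5.33% to 10.4% and *Gsta3* 4.10% to 6.45%. Among UGTs, *Ugt2b5* held 2.97% to 3.83% and *Ugt1a7c* 0.58% to 6.68%, and the order of these varied between livers. The summed value of the 25 GST and MGST genes was 10858 to 18854 in treated livers, against 12239 to 20659 in controls, that of the UGTs 2501 to 3798 and 2929 to 7175, and that of the SULTs 383 to 498 and 339.8 to 843. The highest control sum in each was that of liver 4.

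**Figure D3:**
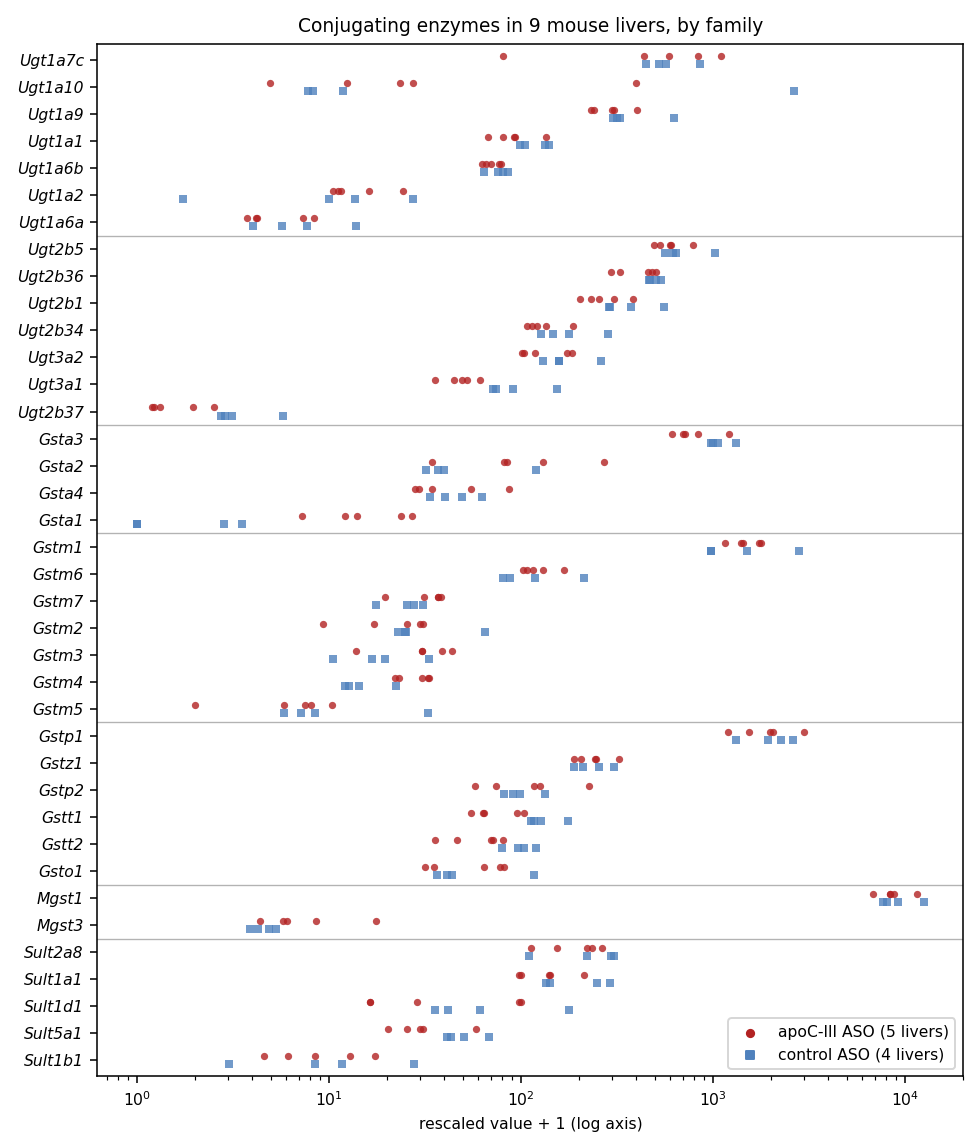
Rescaled value plus 1 (horizontal log axis) of the 38 members named in the text, by family, for 5 apoC-III ASO livers (red circles) and 4 control ASO livers (blue squares). Levels span from at most 4.77 in *Ugt2b37* to at least 6812 in *Mgst1*, and the circles and squares overlap in most rows.

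The UGT1A genes lie in 1 locus on chromosome 1 (GRCm38), where each member has its own first exon and all share the last 4 coding exons. The 9 members had 737 identical bases at the 3′ end of coding sequences of 1584 to 1605 bases. In stretches of 31 bases, 58.5% to 84.2% of the sequence of *Ugt1a1*, *Ugt1a9*, *Ugt1a10* and *Ugt1a6b* was found in other genes, so their levels rest on reads from the first exon and on how the rest was divided. The 2 members whose deposited TPM traded places between livers were *Ugt1a7c* and *Ugt1a10*. A first-exon stretch of each is shown, where capitals mark the 23 bases of 60 that differ. Below them are 60 bases of the last exon that both share. All are taken from GENCODE M21 on GRCm38.
*Ugt1a7c*, plus strand, chr1:88095730-88095789: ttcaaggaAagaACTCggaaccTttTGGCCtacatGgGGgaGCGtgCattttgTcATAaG
*Ugt1a10*, plus strand, chr1:88056088-88056147: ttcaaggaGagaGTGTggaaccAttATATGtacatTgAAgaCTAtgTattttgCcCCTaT
Shared last exon, plus strand, chr1:88218362-88218421: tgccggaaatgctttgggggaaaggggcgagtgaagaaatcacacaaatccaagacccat
Of the UGT1A members, 8 of 9 were lower (7 by mean rescaled value), 0 had an unadjusted p under 0.05 in limma, and the median log2 fold change was −0.36, or −0.24 without control liver 4. Without the scaling factors, *Ugt1a7c*, *Ugt1a10*, *Ugt1a9*, *Ugt1a1* and *Ugt1a6b* turned positive, though below the median over all genes there, 0.41. *Ugt1a1*, the enzyme that conjugates bilirubin, was at 92.1, 66.2, 80.2, 135 and 91.6 in apoC-III ASO livers and at 132, 104, 97.9 and 139 in control livers. The groups overlapped, with apoC-III ASO liver 4 among the controls (log2 fold change −0.37, 95% interval −0.89 to 0.15, limma). *Ugt1a9*, a conjugator of bulky phenols, was at 298, 239.7, 229.9, 403 and 305 and at 329, 300.1, 317 and 628. Only control liver 4 was above the highest apoC-III ASO liver, and the log2 fold change was −0.37 with it and −0.12 without it. *Ugt1a6b*, which conjugates small planar phenols, varied least, at 62.1 to 78.1 and 63.6 to 84.3 (log2 fold change −0.11, SE 0.18). Its near copy *Ugt1a6a*, 98.4% identical in coding sequence, stood at 2.74 to 7.36 and 3.02 to 12.9. *Ugt1a2* was the only UGT with a positive difference, 0.64 (95% interval −0.75 to 2.04, limma), and control liver 4, at 0.731 beside 8.99 to 26.4 in the other controls, set its sign. Without that liver it was −0.15.
*Ugt1a10* was high in 1 liver of each group. In TPM as deposited it was at 0.285, 26.4, 0.538, 1.37 and 0.647 in apoC-III ASO livers 1 to 5 and at 0.876, 0.457, 0.357 and 25.5 in control livers 1 to 4. High values stood in apoC-III ASO liver 2 and control liver 4 only. *Ugt1a7c* was at 31.5, 5.28, 28, 43.1 and 31.8 and at 36, 32.9, 45.1 and 5.5, lowest in those same livers. The sum of both ran from 28.5 to 45.5 TPM over all livers and overlapped between the groups. Rescaled, that sum was less even, at 442, 479, 604, 860 and 1127 and at 460, 530, 862 and 3220. Rescaled *Ugt1a7c* was at 571 in control liver 4, inside the control range of 449 to 855. A deposited file of values per gene cannot tell which first exon the reads came from. On the rescaled scale *Ugt1a10* was at 3.97 to 399 and 6.76 to 2649.6, with a log2 fold change of −0.45 (SE 1.69, limma) that became 1.60 without control liver 4. The whole UGT1A locus, summed, was at 919 to 1624 in treated livers, against 1077, 1042, 1419 and 4085 in controls 1 to 4. It differed by −0.45 on the log2 scale (SE 0.40, limma adjusted p = 0.933), and by 0.0037 (SE 0.27) without control liver 4.

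**Figure D4:**
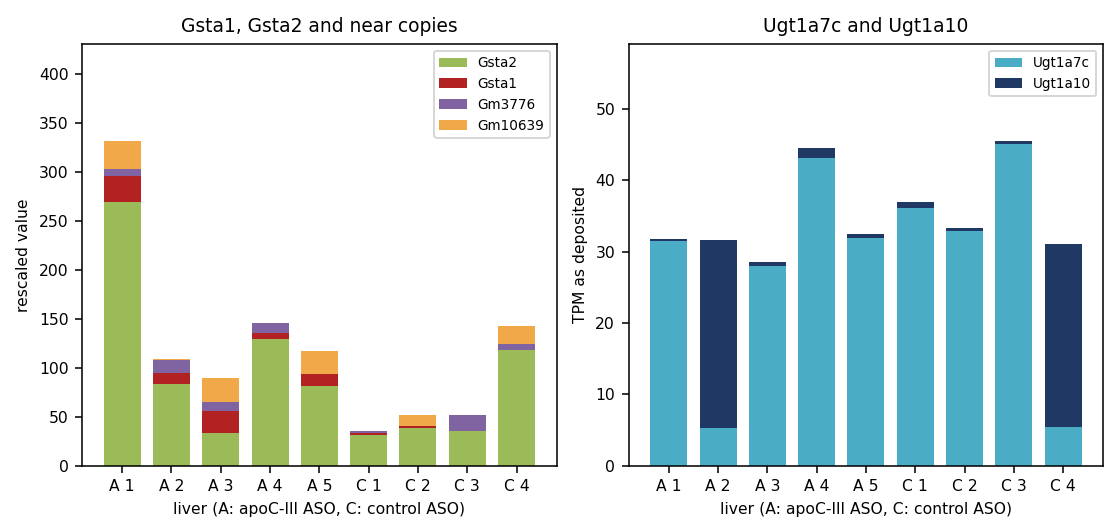
Stacked values per liver (A, apoC-III ASO 1 to 5, and C, control ASO 1 to 4) of *Gsta2*, *Gsta1* and the near copies *Gm3776* and *Gm10639* as rescaled values (left), and of *Ugt1a7c* and *Ugt1a10* as deposited TPM (right). On the right, *Ugt1a10* fills most of the bar in A 2 and C 4 and almost none elsewhere, while the height of the bars stays between 28.5 and 45.5 TPM.

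The UGT2 genes, which conjugate steroids, bile acids and phenols, and the UGT3 genes were lower throughout on this scale. All 10 tested members had a negative log2 fold change, with a median of −0.42 (−0.25 without control liver 4) and a range from −1.13 to −0.22, and 2 had an unadjusted p under 0.05 in limma. Without the scaling factors *Ugt2b5*, *Ugt2b36*, *Ugt2b1*, *Ugt2b34* and *Ugt3a2* turned positive, though below the median over all genes there, 0.41. The 4 most abundant UGT2B genes did not separate the groups. *Ugt2b5* was at 598, 528, 608, 788 and 492 and at 646, 562, 621 and 1020.5, with a log2 fold change of −0.22 (95% interval −0.74 to 0.31, limma) and of −0.03 without control liver 4. *Ugt2b36* was at 294 to 504 and 463 to 534 (log2 fold change −0.29), *Ugt2b1* at 202 to 385 and 288 to 554 (−0.43, and −0.23 without control liver 4) and *Ugt2b34* at 107 to 185 and 127 to 283 (−0.43, and −0.20 without it). In each of these the ranges of the groups overlapped.
*Ugt3a1* (ENSMUSG00000072664, chromosome 15 from 9276888 to 9315032, plus strand) encodes an enzyme whose human counterpart transfers N-acetylglucosamine in place of glucuronic acid. It was at 34.9, 48.6, 44, 51.3 and 60.5 in apoC-III ASO livers 1 to 5 and at 73.5, 70.4, 90 and 154 in control livers 1 to 4. No treated liver reached the lowest control. The means were 47.8 ± 9.44 (SD, n = 5) and 96.9 ± 38.9 (SD, n = 4), and the log2 fold change was −0.95 (SE 0.27, unadjusted p = 0.00395, adjusted p = 0.786, limma), so the difference was not called. It ran from −1.08 to −0.71 with any 1 liver left out. Its neighbor *Ugt3a2*, 93.2% identical in coding sequence, was at 117, 100.1, 103, 183 and 173 and at 158, 129, 158 and 259. There the groups overlapped, with apoC-III ASO livers 4 and 5 inside the control range, and the log2 fold change was −0.37 (95% interval −0.97 to 0.22, limma) and −0.17 without control liver 4.
*Ugt2b37* (ENSMUSG00000057425, chromosome 5 from 87240493 to 87254804, minus strand) was close to the lowest level tested, with a treated mean under the filter of 1, at 0.224, 0.207, 0.973, 1.53 and 0.32 and at 2.14, 1.74, 1.87 and 4.77. The groups did not overlap, with control liver 4 highest. Its log2 fold change on the scale with 1 added was −1.13 (SE 0.33, unadjusted p = 0.00563, adjusted p = 0.848, limma) and −0.93 without control liver 4. Of its 31-base stretches, 34.4% occur in other genes and 25.9% in *Ugt2b5*, the most abundant UGT2B. The 10 UGT2 genes of chromosome 5, summed, differed by −0.31 (SE 0.24, adjusted p = 0.916, limma), and by −0.16 without control liver 4. Of the 2 rows with the symbol *Ugt2a1*, 1 was listed at 0 in all livers and the other, which GENCODE M21 names Ugt2a2, did not exceed 0.384.

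The GSTA genes differed in both directions and included the largest difference of all members, that of *Gsta1*. *Gsta1* and *Gsta2*, alpha-class enzymes known to be induced by electrophiles and antioxidants, were higher in apoC-III ASO livers, while *Gsta3* and *Gsta4* had negative log2 fold changes. *Gsta1* (ENSMUSG00000074183, chromosome 9 from 78230656 to 78242684, plus strand) was at 26.3, 11.1, 22.7, 6.28 and 13 in apoC-III ASO livers 1 to 5 and at 2.55, 1.86, 0 and 0 in control livers 1 to 4. Each apoC-III ASO liver exceeded every control liver, and 2 controls were listed at 0. The means were 15.9 ± 8.33 (SD, n = 5) and 1.1 ± 1.3 (SD, n = 4). On the scale with 1 added, the log2 fold change was 3.09 (SE 0.49, unadjusted p = 4.41e-05, limma), the third smallest p of the 11954 genes tested. The adjusted p was 0.176 and ran from 0.0801 to 0.778 over the alternatives, so *Gsta1* was not called under any of them. The upper end came from the exact permutation test, in which no gene could be called. With any 1 liver left out the log2 fold change ran from 2.81 to 3.43, and without control liver 4 it was 2.87. In TPM as deposited *Gsta1* was at 1.89, 0.733, 1.07, 0.325 and 0.376 and 0.205, 0.117, 0 and 0, too low to be tested on that scale.
*Gsta2* (ENSMUSG00000057933, chromosome 9 from 78331018 to 78355788, minus strand) was at 269, 83.6, 33.5, 129 and 80.9 and at 31, 38.6, 36 and 118. Control liver 4 exceeded apoC-III ASO livers 2, 3 and 5, while against controls 1 to 3 only apoC-III ASO liver 3 overlapped. The log2 fold change was 0.99 (95% interval −0.20 to 2.18, adjusted p = 0.90, limma) with control liver 4 and 1.43 without it, and 1.07 in TPM as deposited, where it was the only member with an unadjusted p under 0.05 (1.03% of all genes on that scale were higher at that level and 0.972% lower, with 0 members lower).
These 2 genes are near copies, and so are *Gm3776* and *Gm10639* beside them. The coding sequences of *Gsta1* and *Gsta2* were 97.6% identical, with 13 mismatches and the longest identical run 196 bases. Of the 924 distinct 31-base stretches of *Gsta1*, 92.9% occurred in other genes, 80.3% in *Gm3776* and 56.6% in *Gsta2*, and 66 in none of the 3 copies. The 60 coding bases where the pair differs most are shown, with the 5 differing bases in capitals (GENCODE M21, GRCm38).
*Gsta1*, plus strand, chr9:78241561-78241620: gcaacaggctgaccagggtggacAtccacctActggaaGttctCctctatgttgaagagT
*Gsta2*, minus strand, chr9:78332125-78332184: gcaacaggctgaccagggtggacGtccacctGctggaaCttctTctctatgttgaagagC
The value of *Gsta1* therefore rests on few bases of its own. *Gm3776* was at 7.07, 12.8, 9.0, 10.1 and 0 in apoC-III ASO livers and at 1.51, 0, 16.1 and 6.04 in control livers, and *Gm10639* at 28.3, 1.35, 24.2, 0 and 22.8 and at 0, 11.1, 0 and 18. Both were at 0 in livers of each group and overlapped between the groups. *Gsta1* and *Gsta2* summed were at 296, 94.8, 56.3, 135 and 94.0 against 33.5, 40.5, 36.0 and 118. That sum overlapped only through control liver 4, and it differed by 1.21 on the log2 scale (SE 0.48, unadjusted p = 0.0271, adjusted p = 0.878, limma). All 4 copies summed gave 1.2 (SE 0.44, unadjusted p = 0.0191, adjusted p = 0.863, limma). With *Gsta4*, the other member of the chromosome 9 cluster, the sum of 3 members gave 0.71 (SE 0.41, unadjusted p = 0.110, limma). Without control liver 4 these sums gave 1.63, 1.61 and 0.97.
Upstream of the start, the pair was less alike, with 70.5% identity over 261 aligned positions of the 250 bases before each start. Both windows (RefSeq, GRCm38.p6) are shown because these genes had the highest differences of the members, with the 66 bases of each that differ from or have no partner in the other in capitals.
*Gsta1*, plus strand, chr9:78230419-78230668: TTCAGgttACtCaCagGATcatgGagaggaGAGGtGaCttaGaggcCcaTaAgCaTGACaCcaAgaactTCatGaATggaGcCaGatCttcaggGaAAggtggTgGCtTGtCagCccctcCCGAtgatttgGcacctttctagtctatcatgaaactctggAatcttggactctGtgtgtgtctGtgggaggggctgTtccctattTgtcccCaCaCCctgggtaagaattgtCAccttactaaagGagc
*Gsta2*, minus strand, chr9:78347146-78347395: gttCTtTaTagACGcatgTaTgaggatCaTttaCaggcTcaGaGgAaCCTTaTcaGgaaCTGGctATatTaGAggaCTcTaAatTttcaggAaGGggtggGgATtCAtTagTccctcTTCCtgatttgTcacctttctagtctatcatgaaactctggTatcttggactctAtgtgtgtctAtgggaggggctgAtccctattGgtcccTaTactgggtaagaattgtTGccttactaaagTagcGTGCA
Motifs of factors known for conjugating enzymes were searched on both strands in 300-base windows, 250 before and 50 after each start, in 70 promoters of 58 of the 66 member symbols. TGACNNNGC, the core bound by NRF2, was in 4 of them, those of *Gsta3*, *Gstm5*, *Gstm7* and *Mgst1*, and in 12.4% of all 32851 promoters. TNGCGTG, bound by AhR, was in 3, those of *Gsta2*, *Sult1d1* and *Ugt1a5*, and in 5.07% of all. In *Gsta2* it lay 9 to 3 bases before the start. TTATGTAA, bound by DBP and its relatives, was in that of *Ugt2b1* and in 0.938% of all. An HNF1 palindrome and a direct repeat bound by PXR and its kin, both searched as single exact patterns, were in none of the 70 and in 0.00913% and 0.0122% of all.
*Gsta3*, the main alpha-class enzyme of mouse liver, known for conjugating aflatoxin epoxide, was at 713, 614, 697, 1214 and 835 and at 1066, 999.8, 975 and 1314. Control livers were higher except that apoC-III ASO liver 4 exceeded controls 1 to 3, and the log2 fold change was −0.45 (95% interval −0.98 to 0.077, adjusted p = 0.90, limma). *Gsta4*, which conjugates the lipid peroxidation product 4-hydroxynonenal, was at 27.2 to 86.2 and 32.8 to 61.6 (log2 fold change −0.093, SE 0.35, and −0.051 without control liver 4), and its mean rescaled values were 45.8 ± 25 (SD, n = 5) and 45.4 ± 12.5 (SD, n = 4).

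**Figure D5:**
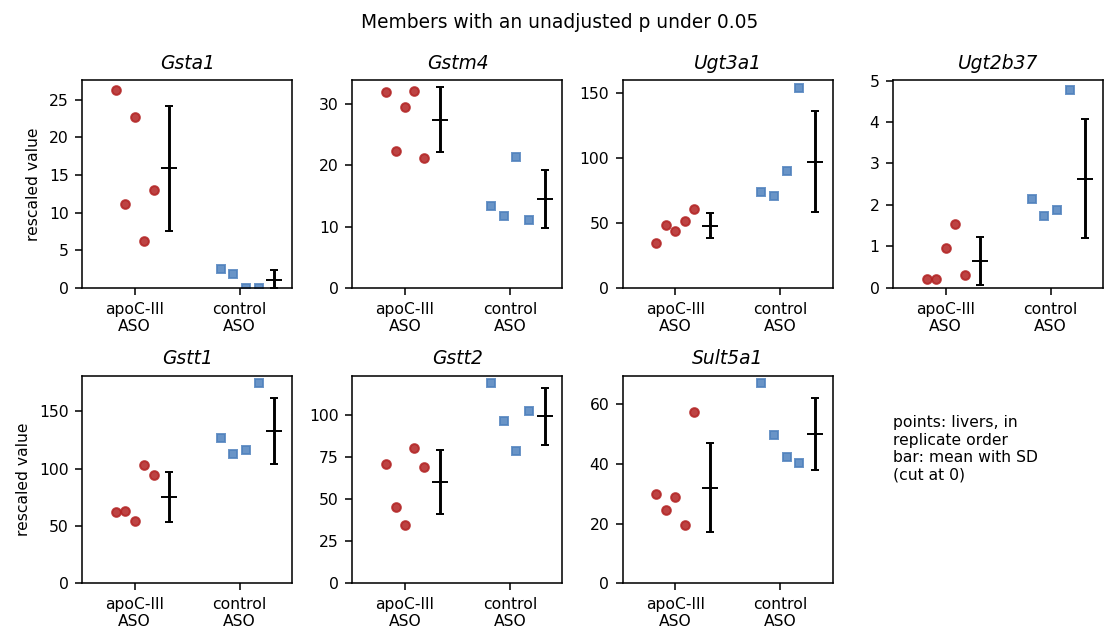
Rescaled values (vertical axes, from 0) of the 7 members with an unadjusted p under 0.05, with 1 point per liver (red circles, apoC-III ASO; blue squares, control ASO) and the mean with SD beside them. *Gsta1* and *Gstm4* sit higher in apoC-III ASO livers, the other 5 lower, and control liver 4 is the highest point in *Ugt3a1*, *Ugt2b37* and *Gstt1*.

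The GSTM genes, mu-class enzymes that conjugate epoxides, lie together on chromosome 3, and 5 of the 7 had a positive log2 fold change (median 0.079, and 0.39 without control liver 4). By mean rescaled value 3 of the 7 were higher, *Gstm3*, *Gstm4* and *Gstm7*. *Gstm4* (ENSMUSG00000027890, chromosome 3 from 108040408 to 108044894, minus strand) was at 31.9, 22.2, 29.5, 32.1 and 21.2 in apoC-III ASO livers and at 13.4, 11.8, 21.4 and 11.1 in control livers. The groups met only where control liver 3 just exceeded apoC-III ASO liver 5. The means were 27.4 ± 5.28 (SD, n = 5) and 14.4 ± 4.72 (SD, n = 4), with a log2 fold change of 0.90 (SE 0.24, unadjusted p = 0.00317, adjusted p = 0.774, limma), which was not called. Only 3.31% of its 31-base stretches occur in other genes. *Gstm3* was at 38.1, 29.4, 29.6, 42.9 and 12.9 and at 15.7, 9.57, 18.7 and 32.3. Control liver 4 reached the apoC-III ASO range there and apoC-III ASO liver 5 fell into the control range, with a log2 fold change of 0.68 (95% interval −0.17 to 1.52, limma) that was 0.97 without control liver 4.
The 2 most abundant members showed no such separation. *Gstm1*, the major mu-class enzyme of mouse liver, was at 1402, 1435, 1779, 1741 and 1153 and at 982, 981, 1512 and 2803. Control livers 1 and 2 were lowest and control liver 4 was highest of all, so the log2 fold change of 0.061 (SE 0.32) became 0.39 without it. *Gstm6* was also highest in control liver 4, at 101 to 167 and 80.3 to 212 (0.079, and 0.37 without control liver 4). *Gstm7* was at 18.5 to 37.2 and 16.7 to 29.9 (0.35). The 2 negative differences were those of *Gstm5*, at 1.01 to 9.35 and 4.87 to 32, and *Gstm2*, at 8.38 to 30 and 21.8 to 64.5. Both had their highest value in control liver 4, and their log2 fold changes of −0.81 and −0.59 were −0.26 and −0.23 without it. The cluster summed differed by 0.071 (SE 0.31, limma), and by 0.39 without control liver 4.

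Of the other GSTs, the theta class had lower values in treated livers. Theta-class enzymes act on small halogenated compounds and are encoded by a cluster on chromosome 10. *Gstt1* (ENSMUSG00000001663, chromosome 10 from 75783813 to 75798584, minus strand) was at 62.4, 63.1, 54, 103 and 94.3 in apoC-III ASO livers and at 127, 113, 117 and 175 in control livers. No apoC-III ASO liver reached a control liver. The means were 75.4 ± 21.9 (SD, n = 5) and 133 ± 28.8 (SD, n = 4), with a log2 fold change of −0.83 (SE 0.25, unadjusted p = 0.00618, adjusted p = 0.848, limma). *Gstt2* (ENSMUSG00000033318, chromosome 10 from 75831114 to 75837424, minus strand) was at 70.8, 45.4, 34.8, 80.2 and 69.3 and at 119, 96.2, 78.5 and 102. Only apoC-III ASO liver 4 came within the control range, just above control liver 3, and the log2 fold change was −0.76 (SE 0.27, unadjusted p = 0.016, adjusted p = 0.864, limma). Neither was called. These 2 genes share little sequence, 60.6% identical in coding sequence and with 0.468% and 3.66% of their 31-base stretches found elsewhere. Without control liver 4 the log2 fold changes were −0.69 and −0.74, and in TPM as deposited −0.45 and −0.40.
The cluster summed over 4 members was at 170, 123, 111, 208 and 202 against 273, 232, 243 and 323. Its groups did not overlap, and its log2 fold change of −0.75 (SE 0.24, unadjusted p = 0.00987, adjusted p = 0.876, limma) was the lowest of the 18 family sums tested. The other tested members of this group, *Gstk1*, *Gstp3* and *Gstt3*, were lower, with differences of −0.30, −0.43 and −0.40 on the log2 scale, and *Gstt4* was above 0 in apoC-III ASO liver 4 alone, at 0.507.
The pi class did not separate the groups. *Gstp1*, the enzyme known for its rise in rodent liver tumors, was at 1992, 1199, 2062, 2990.3 and 1538 and at 2261, 1320.2, 1950.3 and 2613. The control range lay inside that of the treated livers, with a log2 fold change of −0.081 (95% interval −0.75 to 0.59, limma) and 0.056 without control liver 4. *Gstp2*, 98.1% identical to it, was at 57 to 226 and 81.2 to 133 (0.11, and 0.069 without it). *Gstz1*, the maleylacetoacetate isomerase of tyrosine breakdown, was at 188 to 324 and 189 to 306, a log2 fold change of 0.0041 (95% interval −0.50 to 0.51, limma) and −0.10 without control liver 4. *Gsto1*, an omega-class thiol transferase, was at 30.9 to 80.7 and 35.8 to 116 (0.037, and 0.42 without control liver 4), and *Gsto2* was listed at 0 throughout.

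The MGSTs were far apart in level. *Mgst1*, an abundant enzyme of the endoplasmic reticulum and outer mitochondrial membrane, was at 8738, 6812, 8341, 11586 and 8384 in apoC-III ASO livers and at 9234, 8038, 7661 and 12574 in control livers. It was the 10th most abundant protein-coding gene by mean rescaled value, and its groups overlapped over nearly their whole range (log2 fold change −0.089, 95% interval −0.66 to 0.48, limma). Its sign turned with the scaling, with 0.25 in TPM as deposited, and was 0.064 without control liver 4. *Mgst3*, a glutathione peroxidase of membranes, was at 16.7, 3.36, 5.03, 7.54 and 4.8 and at 2.89, 3.3, 3.91 and 4.31. ApoC-III ASO liver 1 was far above all others, livers 3 to 5 were just above the controls and liver 2 was among them. The log2 fold change was 0.71 (95% interval −0.094 to 1.51, limma), and with 1 liver left out it ran from 0.39 to 0.89. *Mgst2* was below 1 in all but 1 liver and was not tested.

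Few SULTs were measurable. Of 21 members, 12 were listed at 0 in every liver, among them *Sult2a1* to *Sult2a6*, *Sult3a1* and *Sult3a2*, and *Sult4a1*, a brain form. *Sult2a1* and *Sult3a1* are known as female-biased genes of mouse liver. A value of 0 in a TPM file says only that no signal was assigned. Another 3, *Sult1e1*, *Sult2a7* and *Sult2b1*, stayed below the mean of 1. All 6 tested members were lower, from −0.76 to −0.12, and 1 had an unadjusted p under 0.05 in limma. Without the scaling factors *Sult2a8* and *Sult1b1* turned positive, though below the median over all genes there, 0.41.
*Sult5a1* (ENSMUSG00000000739, chromosome 8 from 123140192 to 123158315, minus strand) was at 29.9, 24.5, 28.8, 19.4 and 57.4 in apoC-III ASO livers and at 67, 49.8, 42.4 and 40.4 in control livers. ApoC-III ASO liver 5 lay among the controls and the other 4 lay below all of them. The log2 fold change was −0.69 (SE 0.30, unadjusted p = 0.0397, adjusted p = 0.878, limma), and the exact two-sided permutation p was 0.0794. *Sult2a8*, which sulfates bile acids, was the most abundant SULT at 219.6, 265, 235, 153 and 112 and 294, 109, 220.3 and 304. Its groups overlapped (log2 fold change −0.19, SE 0.35, and −0.027 without control liver 4). *Sult1a1*, the phenol sulfotransferase, was at 141, 97, 99.3, 138 and 212 and 134, 141, 249 and 291. Control livers 3 and 4 were above all others, and the log2 fold change of −0.54 (95% interval −1.22 to 0.14, limma) was −0.34 without liver 4.
*Sult1d1*, an amine and phenol sulfotransferase, was at 15.3, 27.8, 15.5, 98.7 and 97 and at 41, 34.8, 60.6 and 178. Livers 1 to 3 of the apoC-III ASO group were the lowest of all 9, livers 4 and 5 were exceeded only by control liver 4, and the log2 fold change was −0.76 (95% interval −2.18 to 0.66, limma) and −0.26 without control liver 4. The same division of the apoC-III ASO livers ran through some genes of the circadian clock but not all. *Hlf* did not divide so, at 6.41, 10.2, 27.3, 28.2 and 16.8 and at 36.5, 21.3, 21.5 and 9.43. *Dbp* was at 2.92, 22.2, 2.7, 152 and 97.7 and at 103, 78.1, 100.5 and 68.2, and *Ciart* at 3.69, 3.84, 3.11, 198 and 282 and 69.9, 173, 109 and 106. *Arntl*, which peaks opposite to them, was at 17.7, 11.1, 30.9, 0.74 and 2.75 and 0.32, 1.06, 1.11 and 2.46. Of 15 clock genes 14 were tested, 11 lower and 3 higher. In the main fit none was called. There 3, among them *Arntl* and *Per2*, had an unadjusted p under 0.05 by limma, 1 higher and 2 lower (2.99% and 2.58% of all genes). *Per2* was called in TPM as deposited without control liver 4 (−2.17, adjusted p = 0.0027, limma), the only listed gene called under an alternative. The part of the clock in *Sult1d1* was not tested. *Sult1b1*, a thyroid hormone and phenol sulfotransferase beside it, was at 3.6 to 16.4 and 2.03 to 26.7 (−0.12, and 0.40 without control liver 4).

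The genes that serve these enzymes were read from 7 lists, of which 58 genes were tested. In limma, 0 of the 58 were called and 4 had an unadjusted p under 0.05, 1 higher and 3 lower (2.99% and 2.58% of all genes). UDP-glucuronate supply had 3 of 5 genes higher, with a median log2 fold change of 0.18. *Slc35d1*, which carries UDP-glucuronate into the endoplasmic reticulum, was at 103, 70.9, 66.2, 69.6 and 87.2 and 68.1, 41.9, 65.4 and 50.2. Most apoC-III ASO livers were above most controls, with an overlap at control liver 1 (0.49, unadjusted p = 0.049, adjusted p = 0.878, limma). *Slc35b1*, a nucleotide carrier of that membrane, differed by −0.48.
Sulfate supply was lower for 5 of 7 genes, with a median of −0.34 (−0.21 without control liver 4). *Slc26a1*, a sulfate transporter of the hepatocyte, was at 40.2, 48.5, 45, 54.1 and 51.5 and at 70.1, 57.5, 81.8 and 68.7. Its groups did not overlap, with all apoC-III ASO livers below all controls, as in 0.912% of all genes. The log2 fold change was −0.53 (SE 0.19, unadjusted p = 0.0176, adjusted p = 0.864, limma). *Papss2*, which makes PAPS, was at 15.2, 23.6, 18.9, 25.3 and 23 and 51.8, 20.9, 28.2 and 35.5, where control liver 2 fell within the apoC-III ASO range (−0.61, unadjusted p = 0.0452, adjusted p = 0.878, limma). Of the glutathione supply genes 4 of 6 tested were higher, with a median of 0.24. *Gclc*, of the enzyme that limits glutathione synthesis, was at 114, 106, 276, 147 and 65.6 and 96.7, 70.8, 77.5 and 109 (0.53, SE 0.35). *Cbs*, the entry enzyme of transsulfuration, differed by 0.84, and by 0.18 without control liver 4.
Among receptors and factors 9 of 14 were lower (median −0.13). The largest differences were those of *Dbp* (−1.99, SE 1.01), given above, and *Nr1i3*, which encodes CAR, at 134, 198, 162, 167 and 236 and 247, 198, 357 and 201 (−0.46, SE 0.25). *Nfe2l2*, which encodes NRF2 and is controlled mostly at the protein, was at 38.7 to 47.7 and 37.4 to 49.7. Of the reporters induced by these factors 6 of 9 tested were lower (median −0.17), and 4 of 9 without control liver 4 (median 0.032). *Nqo1*, a quinone reductase and target of NRF2, was at 3.26, 2.84, 3.15, 3.34 and 3.35 and 1.27, 1.25, 1.4 and 4.19. Control livers 1 to 3 were below all apoC-III ASO livers and control liver 4 was above them, so the log2 fold change was 0.57 with it and 0.89 without it. *Por*, the electron donor of cytochromes P450, was at 92, 136, 57.5, 675 and 649 and 231, 357, 315 and 581, lowest in apoC-III ASO livers 1 to 3 (−0.81, SE 0.69). Of the other NRF2 targets listed, *Hmox1*, *Txnrd1* and *Srxn1* differed by 0.068, 0.018 and −0.061, and without control liver 4 by 0.35, 0.15 and 0.032.
Removal of conjugates was lower for 5 of 6 tested genes (median −0.21). Without control liver 4, 3 of 6 were lower (median −0.067). Among them *Ces1d*, a carboxylesterase that hydrolyzes drug and lipid esters, was at 331, 153, 187, 508 and 476 and 519.7, 494, 469 and 1336 (−1.09, unadjusted p = 0.026, adjusted p = 0.876, limma), and −0.73 without control liver 4. *Gusb*, the lysosomal enzyme that takes glucuronate off, differed by −0.36, and by −0.16 without control liver 4. The list of other conjugation held genes outside the naming rule, among them the UGT gene *Ugt8a*, and some, such as *Alox5ap*, that are not conjugating enzymes. Of its 11 tested genes 8 were lower (median −0.36, and −0.18 without control liver 4). The largest differences were in *Inmt*, an amine methyltransferase (−0.85, SE 0.47), and *Nat1*, an arylamine acetyltransferase (−0.71, SE 0.43, and −0.37 without control liver 4). In this list 0 genes had an unadjusted p under 0.05 in limma.
Markers of other cells that could carry such enzymes are given for comparison. Of cholangiocyte markers 3 of 6 were tested, and their summed value was 37.9 to 81.8 in treated livers, against 41.0 to 121 in controls. Summed Kupffer cell markers were at 61.6 to 94.4 and 58.8 to 108, endothelial markers at 87.7 to 142 and 68.7 to 131, and stellate cell markers at 129 to 160.2 and 149 to 268. Of the stellate cell markers 1 of 6, *Dcn*, was lower at an unadjusted p under 0.05 in limma, where 2.58% of all genes were. It differed by −0.57 on the log2 scale, and by −0.36 without control liver 4. Kidney tubule markers summed to at most 2.07, with *Kap* at 0 in all livers. Intestinal markers summed to 27.6 to 89.1 and 25.7 to 81.8, of which *Vil1* was at most 1.11. Of male-biased liver genes, 10 of 10 were tested and 9 were lower (median −0.18, and −0.29 with 7 lower without control liver 4). Of female-biased genes 2 of 9 were tested, both lower, with 2 listed at 0, *Sult2a1* and *Sult3a1*. Those 2 genes and *Ugt2b38* of the male-biased list (log2 fold change −0.52) are themselves members. None of these marker lists had a gene called, and their part in the members' values was not tested.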

How the data were processed

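RNA from 9 livers was sequenced after ribosomal RNA depletion (stranded, single end, per the study's methods). The authors deposited TPM per gene in a single table. The submitters' processing notes name kallisto 0.43.1 and GRCm38, while the methods describe STAR, featureCounts and DESeq2, and which of these made the deposited values is not given in the sources used here. TPM keep no depth, so p-values measure the spread between these livers, and no litter or batch is given for them. Groups came from the sample titles and the labelled ASO target. Genes were matched to GENCODE M21 (99.5% of 51912 identifiers). Values of the 21780 nuclear protein-coding genes were brought to a sum of 1000000 in each liver, then divided by median-of-ratios factors over 12251 genes above 0 in every liver. The 11954 genes with a mean of at least 1 were tested as log2(value + 1) in limma 3.58.1 (R 4.3.3, trend, no covariates, two-sided), so fold changes of low genes are understated. Benjamini-Hochberg adjustment ran over all genes tested. Scripts were tested on simulated data. Sequences, 31-base stretches and motifs were handled in Python 3.11.15 with Biopython 1.88.
The members and all lists were chosen with earlier results of these data known. Named per family were the 5 most abundant members, the 2 largest differences each way and every member with an unadjusted p under 0.05, and per pathway list the 2 largest differences and every gene under that threshold. Any other gene was named after seeing its values. The alternatives were other scalings, pseudocounts of 0.1 and 5, other filters, limma without trend, robust or with array weights, a replicate block, exact permutation tests, other thresholds, summed gene clusters and each liver left out. Sums of the Gsta copies, TPM as deposited without control ASO liver 4, and the pathway lists and gene sums without that liver were added after seeing the data.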

Additional observations from a re-analysis of the deposited data

Results flagged for a closer look

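In 9 of 76 groups of livers checked, 1 liver stood apart from the others of its group by Dixon's criterion. Chance alone would give about 3.8 if the groups were independent and normally distributed. The genes share the same livers and were checked without logs, so that number is only a rough guide. In 7 of the 9 that liver was control ASO liver 4, whose scaling factor was also the lowest, and the part of the scaling in these values was not tested.
All values are rescaled. *Ugt1a10* was at 2649.64 in control liver 4, with the other controls at 6.76 to 10.9, and at 399.473 in apoC-III ASO liver 2, with the others of that group at 3.97 to 26.5. *Ugt1a9* was at 628.28 in control liver 4, against 300.1 to 328.9. *Ugt2b37* was at 4.77082 there, against 1.74 to 2.14. *Gsta2* was at 118.476, against 31 to 38.6. *Gstm2* was at 64.4987, against 21.8 to 24.2. *Gstm5* was at 31.9578, against 4.87 to 7.43. *Gsto1* was at 116.227, against 35.8 to 42.6. *Sult5a1* was at 57.4321 in apoC-III ASO liver 5, against 19.4 to 29.9 in the other livers of that group.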

How the results depend on the processing

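Under the alternatives run, 0 conjugating enzymes were called, and of 999 values of 38 named members 933 kept their direction, with 66 reversed in 22 genes.
The 2 members higher at an unadjusted p under 0.05 in limma became 1 of 36 in TPM as deposited (1.03% of all genes). They became 0 of 18 sums with clusters summed, 0 of 36 in TPM without control liver 4 (0.455% of all genes) and 0 of 35 with factors over all genes (2.38%). With array weights 4 were higher (3.86% of all genes), and without factors 6 (10.7%). With each liver left out 2 to 4 were higher (2.03% to 3.74% of all genes), with 4 without apoC-III ASO liver 2 or control liver 4. The 5 lower became 0 of 36 in TPM (0.972% of all genes), 3 of 35 with factors over all genes (3.12%) and 1 without factors (0.341%). With clusters summed 2 of 18 sums were lower, and with each liver left out 4 to 7 of 47 members (2.16% to 3.3% of all genes). The median of −0.33 became 0.12 without factors, where that of all genes was 0.41. It ran from −0.42 to −0.20 with each liver left out. *Apoc3* was at −2.62 (adjusted p = 0.104, limma) in TPM, at −3.01 with an adjusted exact permutation p of 0.778, a test in which no gene could be called, and at −3.13 to −2.92 with each liver left out. The 4 pathway genes became 1 in TPM (1.03% of all genes higher and 0.972% lower) and 2 without control liver 4 (2.82% higher and 2.53% lower).
The labels do not say whether replicate numbers pair the livers. Deviations of same-numbered livers correlated at 0.0658, 0.122, 0.0264 and 0.191, and only number 4 was closest to its own number. So few weak correlations cannot decide whether the livers were paired. With the replicate block 10 members were lower at an unadjusted p under 0.05 in limma, where 3.97% of all genes were, and 0 were called, and *Gsta4* (0.053), *Gstz1* (−0.0074) and *Gsto1* (−0.027) changed sign.
Other reversals on the log2 scale were as follows. Without factors the median over all genes was itself 0.41, and 12.0% of all genes were lower. In TPM that median was 0.11, and 29.2% of all genes were lower. Without factors, *Ugt1a7c* was at 0.12, *Ugt1a10* at 0.0081, *Ugt1a9* at 0.11, *Ugt1a1* at 0.10, *Ugt1a6b* at 0.36, *Ugt2b5* at 0.26, *Ugt2b36* at 0.19, *Ugt2b1* at 0.047, *Ugt2b34* at 0.047, *Ugt3a2* at 0.10, *Gsta3* at 0.029, *Gsta4* at 0.37, *Gstp1* at 0.40, *Mgst1* at 0.39, *Sult2a8* at 0.28 and *Sult1b1* at 0.33. In TPM, *Ugt1a6b* was at 0.092, *Ugt2b5* at 0.11, *Ugt2b36* at 0.026, *Gsta4* at 0.11, *Gstp1* at 0.25, *Mgst1* at 0.25 and *Sult2a8* at 0.12. With quantile normalization, *Ugt2b5* was at 0.026, *Gstp1* at 0.14 and *Mgst1* at 0.30. With array weights, *Ugt1a10* was at 1.10, *Gstz1* at −0.11 and *Gstp2* at −0.053, and in TPM without control liver 4 at 0.91, −0.41 and −0.23. The cause was not tested.
With each liver left out, *Ugt1a7c* ran from −0.67 to 0.26, *Ugt1a10* from −1.42 to 1.60, *Ugt1a2* from −0.15 to 1.18, *Gsta4* from −0.35 to 0.063, *Gstm1* from −0.12 to 0.39, *Gstm6* from −0.094 to 0.37, *Gstp1* from −0.28 to 0.074, *Gstz1* from −0.11 to 0.13, *Gstp2* from −0.15 to 0.34, *Gsto1* from −0.13 to 0.42, *Mgst1* from −0.19 to 0.064 and *Sult1b1* from −0.67 to 0.40. Sums without control liver 4 reversed for Gstp genes (0.058), *Gstz1* (−0.10), *Mgst1* (0.064) and the UGT1A locus (0.0037). Depth is unknown, so zeros give no upper limit.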
